A study of Homo sapiens with 6 samples.

Results

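The 34 genes described here run mitochondrial dynamics, mitophagy and biogenesis: 3 fusion genes, 2 proteases that cut the fusion protein OPA1, 6 fission genes, 6 mitophagy genes, 4 genes of the prohibitins and matrix proteases, 6 coactivators and transcription factors, and 7 genes of mitochondrial DNA (mtDNA) transcription and replication. They were picked by name from a list drawn up with earlier results of these data known, and all 34 were found among the 20024 genes of the deposited table. The table holds RNA immunoprecipitation sequencing (RIP-seq), in which an antibody recovers a protein with its RNA and the RNA is sequenced. Here the protein was PTBP1, the polypyrimidine tract-binding protein, a splicing and RNA-stability factor that binds CU-rich stretches. There were 3 libraries from DCRT-KO cells, which lack the long noncoding RNA called DCRT, and 3 from WT cells. All were made with the PTBP1 antibody from AC16 cells, given as heart cardiomyocytes. The labels name AC16 as a cell line but describe its cells as those of a commercial supplier. How the knockout was made, and from how many clones, is not stated in the labels. The question is which RNAs PTBP1 RIP recovers differently once DCRT is gone.

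Mitochondria fuse and divide continually. The mitofusins MFN1 and MFN2 join outer membranes and OPA1 joins inner membranes, whereas adaptors such as MFF, MIEF1 and FIS1 serve the dynamin DNM1L at division. Mitophagy removes damaged mitochondria through the kinase PINK1 or through receptors in the outer membrane such as BNIP3, and biogenesis replaces them under the coactivators of the PGC-1 family, the factors they serve, and a small set of proteins that copy and transcribe mtDNA. Heart muscle depends on this turnover for its energy supply.

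Reads worked back from the deposited values totalled 528371, 373354 and 1380722 in DCRT-KO libraries 1, 2 and 3, against 2589080, 1798841 and 2062766 in WT libraries a to c, so depth goes with genotype and the effects cannot be told apart. DCRT-KO library 3 correlated more with the other genotype than with its own. Over all tested genes its log2(FPKM + 1) had a Pearson correlation of 0.919 to 0.933 with the WT libraries, against 0.895 and 0.900 with DCRT-KO libraries 1 and 2. Those 2 libraries, the shallowest, had 0.883 with each other, so the part of depth in these correlations cannot be told apart. WT columns are lettered in column order, since their headers hold a replicate number more than once. Input RNA and control-antibody libraries were not analysed here, so transcript abundance, PTBP1 binding and unbound background RNA cannot be told apart in any value that follows. The same holds for fewer cells of a type and less RNA per cell. No gene of the table was named DCRT (0 rows), so the knockout was not checked. PTBP1 mRNA had 119 ± 17.2 FPKM (fragments scaled for gene length and depth) in DCRT-KO, against 118 ± 11.7 in WT RIP (SD, n = 3 per group; log2 difference 0.01 ± 0.17 SE, limma adjusted p = 0.977). Of 12 cardiomyocyte markers, 8 were at 0 in all 6 libraries (TNNT2, TNNI3, MYH6, MYH7, ACTN2, MYL7, NKX2-5 and MYBPC3), and the list summed to 1.59 to 3.74 FPKM in DCRT-KO, against 4.54 to 5.36 in WT libraries. The cell type named in the labels is thus not borne out by its defining markers in this RIP RNA. Among markers of other cells, the endothelial transcription factor ERG and the epithelial keratin KRT18 rose (limma adjusted p = 0.0269 and 0.0353), and their part in the results was not tested. The 5 epithelial markers summed to 93.8 to 227 FPKM in DCRT-KO, against 58.5 to 67.0 in WT libraries, with KRT19 and CDH1 at 0. KRT18 carried most of it, with 143 ± 60.2 FPKM in DCRT-KO, against 48.7 ± 2.27 in WT. The groups of KRT8 overlapped, with 19.1 ± 6.84 FPKM in DCRT-KO, against 14.2 ± 3.06 in WT (limma adjusted p = 0.428). The 6 endothelial markers summed to 8.003 to 10.2 FPKM in DCRT-KO, against 4.12 to 5.37 in WT libraries, with CDH5 and TEK at 0. ERG alone carried that higher sum, since PECAM1 had 1.98 ± 0.660 FPKM in DCRT-KO, against 2.37 ± 0.590 in WT (limma adjusted p = 0.743), and KDR was at 0 in every DCRT-KO library. The sarcomere protein gene TTN and the fibroblast marker PDGFRA were lower with voom (adjusted p = 0.0230 and 0.0121) and did not pass with limma (adjusted p = 0.213 and 0.0528). The 8 fibroblast markers summed to 8.41 to 11.1 FPKM in DCRT-KO, against 16.5 to 19.7 in WT libraries, and smooth muscle and immune markers to at most 1.24 FPKM in DCRT-KO and 2.61 in WT libraries.

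Because PTBP1 binds pyrimidine-rich RNA, the transcripts were searched for 3 motifs of that kind, the hexamer CTCTCT, its close relative TTCTCT and the shorter motif TCTT, on the transcript's own strand, with overlapping matches merged. For each gene the 30-base stretch with most bases inside these motifs was taken from 1 coding transcript of GENCODE 29 (GRCh38). The first 5 stretches belong to the genes whose RIP level passed a test described further on, and the last 3 are the members with the densest stretches. Capitals mark the motifs, and T stands for U of the RNA.
FIS1 chr7:101240861-101240890 (minus strand): gagcaaggaggaacagcgggattacgTCTT
LONP1 chr19:5708346-5708375 (minus strand): tccgggacatcattgccttgaaccCTCTCT
ESRRA chr11:64307184-64307213 (plus strand): ccagccaggtggtgggcattgagcCTCTCT
BNIP3 chr10:131967830-131967859 (minus strand): gaaggcacctactcagtaTCTTttccTCTT
SSBP1 chr7:141750342-141750371 (plus strand): agagaaggagtagaaaggatgatTCTTCTT
PPRC1 chr10:102148416-102148445 (plus strand): ctTCTTcgtcatcaTCTTccTCTTcgTCTT
GABPA chr21:25770475-25770504 (plus strand): agaaatgTCTTttTCTTTCTTTTCTCTCTT
PPARGC1A chr4:23795053-23795082 (minus strand): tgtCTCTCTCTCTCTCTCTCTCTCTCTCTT

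The FIS1 stretch lies in coding exon 3 and holds 4 motif bases, a number that 99.6% of the tested genes reach or exceed. LONP1 (coding exon 5) and ESRRA (coding exon 2) hold 6 each, reached by 92.2% of genes. BNIP3 holds 8 in its 3′ UTR, and SSBP1 holds 7 across the end of its coding sequence, numbers reached by 80.7% and 85.8% of genes. By this measure, made on 1 spliced coding transcript per gene and without introns, the 5 genes that passed a test do not carry dense motif runs. Dense runs are found in PPRC1 and GABPA, which did not pass, and in PPARGC1A, which was too low to be tested. PPRC1 holds 16 in coding exon 10 (reached by 7.11% of genes), GABPA 21 in its 3′ UTR (1.49%) and PPARGC1A 27 in its 3′ UTR (0.499%). The groups of PPRC1 overlapped. GABPA and PPARGC1A had every DCRT-KO library below every WT library, as 14.8% of all tested genes had. PPARGC1A rests on 1, 0 and 6 reads in DCRT-KO libraries 1, 2 and 3. A match is only a match of letters, and no binding was read from it.

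FIS1, LONP1 and ESRRA rose in DCRT-KO RIP with limma, and no member passed as lower. SSBP1 came closest to passing as lower (limma adjusted p = 0.0588). Of the 34 members, 31 had a mean of at least 1 FPKM over the 6 libraries and were tested with limma on log2(FPKM + 1) across all 11445 such genes. At a limma adjusted p below 0.05, 3 of 31 were higher, where 2.35% of all tested genes were called higher, and 0 were lower, where 1.2% were. Higher genes made up 66.26% of all calls, 50.27% with quantile normalization and 36.19% when libraries were rescaled without mitochondrially encoded genes. At an unadjusted limma p below 0.05, 6 members were higher (FIS1, LONP1, ESRRA, BNIP3, POLRMT and TWNK) and 3 lower (MFN1, OMA1 and SSBP1), where 12.3% and 11.3% of all tested genes were. With voom, limma's model for read counts, run on the recovered reads, 4 were higher (BNIP3 joined) and 1 was lower (SSBP1), where 5.85% and 3.4% of all genes were called. All 3 DCRT-KO libraries lay above all 3 WT libraries in 8 tested members, where 15.5% of all genes did so, and below them in 4, where 14.8% did. On the log2 scale, DCRT-KO minus WT, 16 members had a positive and 15 a negative difference, with a median of 0.09, against -0.04 over all tested genes. Without DCRT-KO library 3, FIS1, LONP1 and ESRRA still passed (limma adjusted p = 0.0137, 0.0161 and 0.0251). POLRMT and TWNK then also passed as higher, and MFN1, YME1L1 and SSBP1 passed as lower. In that setting 724 of all 11420 tested genes were called higher and 836 lower, against 269 and 137 of 11445 as reported. Calls thus rose across the whole table. The summed share of the members overlapped between the groups, at 0.208% to 0.247% of the FPKM sum in DCRT-KO, against 0.224% to 0.240% in WT libraries. The calls rest on few reads, since the median member had 19, 16.5 and 64.5 reads in DCRT-KO libraries 1, 2 and 3, against 122.5, 78.5 and 87 in WT libraries a to c.

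**Figure D1:**
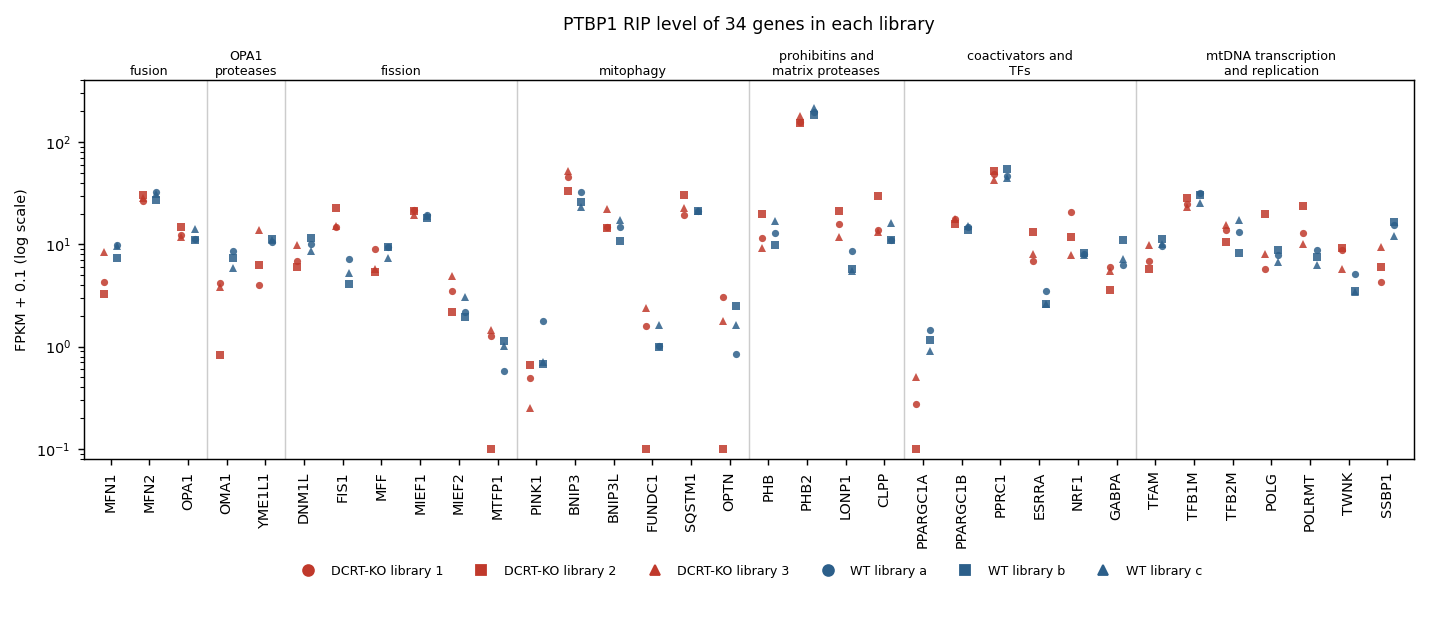
RIP level (FPKM + 0.1, log axis) of all 34 genes, ordered by role, with 1 point per library: DCRT-KO in red to the left of WT in blue. PHB2 stands highest in both groups, FIS1, LONP1 and ESRRA have their DCRT-KO points above all WT points, and SSBP1 and OMA1 have them below.

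In level per length the order of the members was broadly shared. PHB2 ranked first and PPRC1 second in both groups. BNIP3 was at place 3 in DCRT-KO and 5 in WT, where MFN2 and TFB1M stood above it. At the low end PPARGC1A, PINK1, MTFP1, FUNDC1 and OPTN held the last 5 places in both groups, with means of 0.191 to 1.55 FPKM in DCRT-KO, against 0.809 to 1.55 in WT. FIS1 stood at place 9 in DCRT-KO, against 26 in WT, and SSBP1 at place 25 in DCRT-KO, against 8 in WT. Neighbours in the middle of the order, such as PHB, NRF1 and TFB2M at 13.2 to 13.4 FPKM in DCRT-KO, differed by less than their SDs of 2.50 to 6.63 FPKM.

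Among the fusion genes, none of 3 passed the test in either direction. MFN2, the outer-membrane mitofusin that also tethers mitochondria to the endoplasmic reticulum, had 26.3, 30.2 and 28.5 FPKM in DCRT-KO libraries 1, 2 and 3 and 32.6, 27.1 and 31 in WT libraries a to c. Those groups overlap (log2 difference -0.09 ± 0.16 SE, 95% interval -0.45 to 0.27, limma adjusted p = 0.768). OPA1, the inner-membrane fusion dynamin, had 12.1, 14.8 and 11.8 FPKM in DCRT-KO, against 11.2, 10.9 and 14.0 in WT libraries, again overlapping (0.09 ± 0.19 SE, limma adjusted p = 0.799). MFN1, the other mitofusin, had 3.15 to 8.41 FPKM in DCRT-KO, against 7.29 to 9.68 in WT libraries (-0.74 ± 0.31 SE, limma adjusted p = 0.190). Its low values were in DCRT-KO libraries 1 and 2, with 13 and 7 reads, and library 3 lay inside the WT range. Without library 3, MFN1 was lower with a limma adjusted p of 0.0273, where 836 of all 11420 tested genes were called lower.

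Neither of the 2 proteases that cut OPA1 passed. OMA1, the stress-activated protease, had 4.07, 0.720 and 3.70 FPKM in DCRT-KO libraries 1, 2 and 3, and 8.52, 7.33 and 5.74 in WT libraries a to c. Every DCRT-KO library was below every WT library, but the values rest on 8, 1 and 19 reads in DCRT-KO against 82, 49 and 44 in WT libraries (-1.23 ± 0.41 SE, limma adjusted p = 0.110). YME1L1, the protease that cuts OPA1 without stress, had 3.87, 6.21 and 13.7 FPKM in DCRT-KO, against 10.5, 11.1 and 11.04 in WT libraries. Its DCRT-KO libraries lay on both sides of the WT range, 1 and 2 below it and 3 above it (-0.56 ± 0.36 SE, limma adjusted p = 0.363). Without DCRT-KO library 3, YME1L1 was lower with a limma adjusted p of 0.0313, where 836 of all 11420 tested genes were called lower. Without the 2 shallowest libraries its difference had the opposite sign.

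Among the fission genes FIS1 rose, and the other 4 tested did not pass. FIS1, a tail-anchored outer-membrane protein, had 14.8, 22.4 and 14.9 FPKM in DCRT-KO libraries 1, 2 and 3 (14, 15 and 37 reads). It had 7.10, 4.03 and 5.13 FPKM in WT libraries a to c (33, 13 and 19 reads). Every DCRT-KO library was above every WT library, with means of 17.4 ± 4.35 FPKM in DCRT-KO, against 5.42 ± 1.56 in WT (SD, n = 3 per group). The ratio of means was 3.20 and the log2 difference 1.52 ± 0.25 SE (95% interval 0.95 to 2.09, limma adjusted p = 0.0238). FIS1 (ENSG00000214253) lies at chr7:101239458-101252316 on the minus strand in the deposited table. It passed in 13 of 19 alternative settings. It missed the threshold without DCRT-KO library 2 (limma adjusted p = 0.0625) and without WT library a, b or c (0.0628, 0.119 and 0.102). It also missed with all libraries thinned to the shallowest (limma adjusted p = 0.144) and without the 2 shallowest libraries, which leaves 1 DCRT-KO library. Of all tested genes, 42 were called higher without DCRT-KO library 2, and 4, 8 and 0 without WT library a, b or c. After thinning 75 were, against 269 as reported, so these misses cannot be read as a trait of FIS1. The log2 difference of FIS1 was 1.26 to 1.70 over the 19 settings.

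The other fission genes varied within a narrower range. MIEF1, a receptor for DNM1L, had 21.8, 20.9 and 19.5 FPKM in DCRT-KO, against 19.3, 17.8 and 18.8 in WT libraries. These groups do not overlap, yet the gap is small (0.14 ± 0.16 SE, limma adjusted p = 0.614). DNM1L, the dynamin that constricts mitochondria, had 5.89 to 9.65 FPKM in DCRT-KO, against 8.45 to 11.5 in WT libraries (-0.40 ± 0.23 SE, limma adjusted p = 0.331). MFF, its main receptor, had 5.23 to 8.92 FPKM in DCRT-KO, against 7.33 to 9.23 in WT libraries (-0.36 ± 0.24 SE, limma adjusted p = 0.389). Both differences were negative in all 19 alternative settings and neither passed in any. MIEF2, the paralog of MIEF1, had 2.06 to 4.82 FPKM in DCRT-KO, against 1.85 to 2.98 in WT libraries, with 3 to 26 reads in DCRT-KO, against 13 to 24 in WT libraries. MTFP1, an inner-membrane fission protein, had 0 to 3 reads in DCRT-KO, against 2 or 3 in WT libraries and was not tested.

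In the mitophagy group, none of 5 tested genes passed with limma. BNIP3, a receptor that is induced by low oxygen, had 45.5, 33.2 and 52.5 FPKM in DCRT-KO libraries 1, 2 and 3 and 32.7, 25.7 and 22.9 in WT libraries a to c. All DCRT-KO libraries were higher, library 2 by a small margin over WT library a (0.66 ± 0.21 SE, limma adjusted p = 0.105; voom adjusted p = 0.0194 with a log2 difference of 0.74). With voom's library quality weights the adjusted p was 0.0493, and in the other 17 settings BNIP3 did not pass. GENCODE 29 names 39 BNIP3 pseudogenes, so how its reads were shared among copies is uncertain. SQSTM1, the autophagy adaptor p62, had 19.1, 30.2 and 22.6 FPKM in DCRT-KO, against 20.91, 20.95 and 20.91 in WT libraries a to c. The WT values nearly coincide and the DCRT-KO values spread around them (0.16 ± 0.19 SE, limma adjusted p = 0.644).

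The paralog of BNIP3, BNIP3L, had 14.2 to 22.0 FPKM in DCRT-KO, against 10.6 to 17.3 in WT libraries (0.24 ± 0.24 SE, limma adjusted p = 0.580). The receptor FUNDC1 had 0 to 4 reads in DCRT-KO, against 2 to 4 in WT libraries, and the ubiquitin adaptor OPTN had 0 to 12 in DCRT-KO, against 10 to 22 in WT libraries. The groups of both genes overlap, and the 95% intervals of their log2 differences were wide, -1.09 to 0.99 for FUNDC1 (limma adjusted p = 0.959) and -1.31 to 0.99 for OPTN (limma adjusted p = 0.873). PINK1, the kinase that marks damaged mitochondria, had 1 read in each DCRT-KO library and 21, 5 and 6 in WT libraries a to c. It was below the level needed for the test (0.365 ± 0.203 FPKM in DCRT-KO, against 0.952 ± 0.629 in WT), and DCRT-KO library 2, at 0.554 FPKM, came close to WT library b at 0.575. With no filter its limma adjusted p was 0.345.

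Of the prohibitins and matrix proteases, LONP1 rose and the other 3 did not pass. LONP1, the ATP-dependent protease that clears oxidized proteins from the matrix and also binds mtDNA, had 15.6, 21.1 and 11.7 FPKM in DCRT-KO libraries 1, 2 and 3 (42, 40 and 82 reads). It had 8.51, 5.68 and 5.34 FPKM in WT libraries a to c (112, 52 and 56 reads). The lowest DCRT-KO value, in the deepest DCRT-KO library, still lay above the highest WT value. Means were 16.1 ± 4.71 FPKM in DCRT-KO, against 6.51 ± 1.74 in WT (SD, n = 3 per group; ratio 2.48, log2 difference 1.18 ± 0.26 SE, limma adjusted p = 0.0445). LONP1 (ENSG00000196365, chr19:5691834-5720572, minus strand) overlaps RPL36 on the opposite strand, and whether the counting used strand is not given in the sources used here. It passed in 8 of 19 alternative settings, with a log2 difference of 0.78 to 1.38. Leaving out DCRT-KO library 1 or 2 gave a limma adjusted p of 0.0756 or 0.104, and leaving out WT library a, b or c gave 0.108, 0.178 or 0.162. Of all tested genes, 135 and 42 were called higher without DCRT-KO library 1 or 2. Without WT library a, b or c, 4, 8 and 0 were, against 269 as reported. Without the 2 shallowest libraries the log2 difference was 0.78 with a limma adjusted p of 0.212.

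PHB2, one of the prohibitins that form the inner-membrane scaffold and a mitophagy receptor, was the most abundant member. It had 157, 152 and 179 FPKM in DCRT-KO libraries 1, 2 and 3, and 198, 183 and 214 in WT libraries a to c. With 142 or more reads in each library, PHB2 is the best measured of the genes, and its DCRT-KO values were all below its WT values (-0.28 ± 0.15 SE, 95% interval -0.63 to 0.06, limma adjusted p = 0.302). It passed only with quantile normalization (limma adjusted p = 0.0212). Its partner PHB had 9.06 to 19.5 FPKM in DCRT-KO, against 9.85 to 16.7 in WT libraries (-0.01 ± 0.29 SE, limma adjusted p = 0.982), with 21 pseudogenes named in GENCODE 29. CLPP, the other matrix protease, had 13.8, 29.3 and 13.2 FPKM in DCRT-KO, against 10.9, 10.9 and 16.1 in WT libraries. Its high value was in DCRT-KO library 2 alone, and the groups overlap (0.46 ± 0.31 SE, limma adjusted p = 0.381).

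Among the coactivators and transcription factors, the nuclear receptor ESRRA rose and the other 4 tested did not pass. ESRRA, the estrogen-related receptor alpha through which PGC-1 coactivators drive oxidative genes, had 6.76, 13.1 and 8.0 FPKM in DCRT-KO libraries 1, 2 and 3 (11, 15 and 34 reads). It had 3.39, 2.53 and 2.52 FPKM in WT libraries a to c (27, 14 and 16 reads). The groups were apart, with library 2 again the highest: 9.27 ± 3.33 FPKM in DCRT-KO, against 2.81 ± 0.499 in WT (SD, n = 3 per group; ratio 3.30). The log2 difference was 1.39 ± 0.28 SE (limma adjusted p = 0.0346). ESRRA (ENSG00000173153, chr11:64305524-64316743, plus strand) overlaps TRMT112 on the opposite strand and has 2 named pseudogenes. It passed in 10 of 19 alternative settings and missed the threshold without DCRT-KO library 2 (limma adjusted p = 0.0722) and without WT library a, b or c (0.114, 0.157 and 0.135). Of all tested genes, 42 were called higher without DCRT-KO library 2, and 4, 8 and 0 without WT library a, b or c. ESRRA also missed with no filter, without a variance trend, without the 2 shallowest libraries, after thinning and with the GC and length trend removed. Its log2 difference ran from 1.01 to 1.64.

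Of the PGC-1 family, PPRC1 had 48.1, 51.8 and 42.9 FPKM in DCRT-KO, against 46.3, 54.0 and 44.8 in WT libraries. The groups overlap (-0.02 ± 0.16 SE, 95% interval -0.38 to 0.33, limma adjusted p = 0.948). PPRC1 carries 1 of the dense motif stretches printed above, and the part of motifs in its value was not tested. PPARGC1B had 17.6, 15.8 and 17.4 FPKM in DCRT-KO, against 14.6, 13.8 and 15.0 in WT libraries. All its DCRT-KO values were above its WT values by a small step (0.21 ± 0.16 SE, limma adjusted p = 0.453). PPARGC1A, the founding member, had 0.174, 0 and 0.400 FPKM in DCRT-KO libraries 1, 2 and 3 (1, 0 and 6 reads) and 1.35, 1.07 and 0.803 in WT libraries a to c (38, 21 and 18 reads). The groups did not overlap, but the gene was below the level needed for the test, and 0 reads in DCRT-KO library 2 allow up to 8.04 RPM (reads scaled to the library's total). With no filter its log2 difference was -0.81 ± 0.20 SE with a limma adjusted p of 0.092.

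NRF1 and the ETS factor subunit GABPA are the nuclear respiratory factors that switch on genes of the respiratory chain. NRF1 had 7.74 to 20.7 FPKM in DCRT-KO, against 7.77 to 8.10 in WT libraries, with the high value in DCRT-KO library 1 (0.59 ± 0.30 SE, limma adjusted p = 0.277). GABPA had 3.45 to 5.93 FPKM in DCRT-KO, against 6.19 to 10.96 in WT libraries, without overlap (-0.61 ± 0.28 SE, limma adjusted p = 0.222).

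In the mtDNA group, none of 7 passed with limma. The groups did not overlap in 3 of them, 2 higher and 1 lower in DCRT-KO, where 15.5% and 14.8% of all tested genes did so. SSBP1, the single-stranded DNA-binding protein of the mtDNA replication fork, had 4.18, 5.92 and 9.32 FPKM in DCRT-KO libraries 1, 2 and 3 (11, 11 and 64 reads). It had 15.2, 16.5 and 11.9 FPKM in WT libraries a to c (196, 148 and 122 reads). All DCRT-KO libraries were lower, libraries 1 and 2 more so than library 3 (ratio of means 0.445, log2 difference -1.10 ± 0.27 SE, 95% interval -1.72 to -0.49, limma adjusted p = 0.0588). With voom on reads SSBP1 passed as lower (-1.01 ± 0.30 SE, adjusted p = 0.0375), and in all it passed in 7 of 19 alternative settings. SSBP1 (ENSG00000106028, chr7:141738334-141787922, plus strand) overlaps TAS2R3 and TAS2R4 on its own strand, so how reads were shared there is uncertain. TWNK, the helicase Twinkle, had 5.60 to 9.07 FPKM in DCRT-KO, against 3.28 to 5.04 in WT libraries (0.84 ± 0.26 SE, limma adjusted p = 0.0993), and it overlaps MRPL43 on the opposite strand. POLRMT, the mitochondrial RNA polymerase, had 9.88 to 23.8 FPKM in DCRT-KO, against 6.23 to 8.63 in WT libraries (0.88 ± 0.30 SE, limma adjusted p = 0.119). The values of TWNK and POLRMT thus lay on the other side of 0 from that of SSBP1.

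The remaining mtDNA genes overlapped between groups. TFB1M, an rRNA methyltransferase related to the transcription factor TFB2M, had 24.9, 28.02 and 23.1 FPKM in DCRT-KO, against 31.9, 30.2 and 25.4 in WT libraries (-0.19 ± 0.17 SE, limma adjusted p = 0.511). TFB2M had 13.8, 10.5 and 15.4 FPKM in DCRT-KO, against 13.2, 8.10 and 17.1 in WT libraries (0.09 ± 0.27 SE, limma adjusted p = 0.874). Neither gene set the genotypes apart. TFAM, which packages mtDNA and starts its transcription, had 5.58 to 9.74 FPKM in DCRT-KO, against 9.58 to 11.3 in WT libraries (-0.46 ± 0.23 SE, limma adjusted p = 0.265). POLG, the catalytic subunit of the mtDNA polymerase, had 5.70 to 19.7 FPKM in DCRT-KO, against 6.57 to 8.65 in WT libraries (0.32 ± 0.37 SE, limma adjusted p = 0.640). For comparison, the mtDNA-encoded mRNA MT-ND1 had 3580 ± 1259 FPKM in DCRT-KO, against 3962 ± 573 in WT RIP (limma adjusted p = 0.743), and MT-CO1 had 25639 ± 7694 FPKM in DCRT-KO, against 31069 ± 3138 in WT (limma adjusted p = 0.723).

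**Figure D2:**
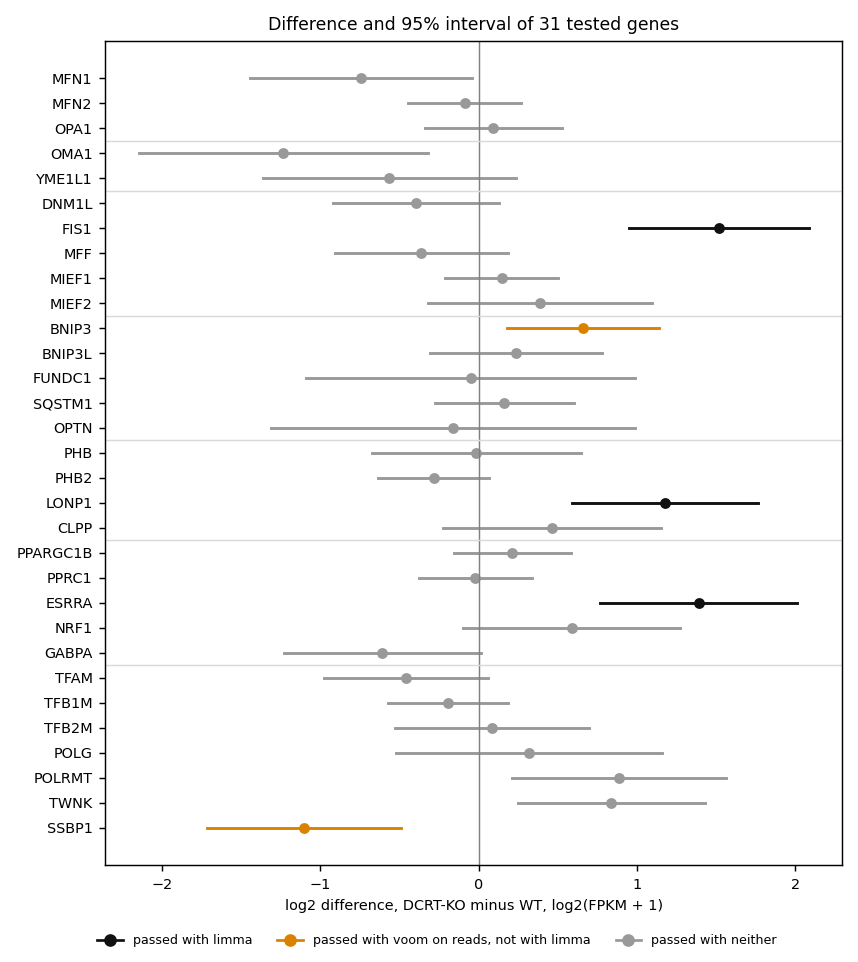
Log2 difference in log2(FPKM + 1), DCRT-KO minus WT, of the 31 tested genes with its 95% interval from limma, in order of role. FIS1, LONP1 and ESRRA (black) passed with limma, BNIP3 and SSBP1 (orange) with voom on reads and not with this limma fit, and the intervals of the others include 0 apart from MFN1, OMA1, POLRMT and TWNK.

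Partners and paralogs were compared through the log2 ratio of their values (FPKM + 1 each) within a library, which largely cancels the library's total. Of 15 pairs, 4 had ratios that did not overlap between the groups. FIS1 over DNM1L had a log2 ratio of 1.02, 1.76 and 0.58 in DCRT-KO libraries 1, 2 and 3 and -0.44, -1.32 and -0.62 in WT libraries a to c. FIS1 thus stood above the dynamin in every DCRT-KO library and below it in every WT library (1.12 ± 0.60 in DCRT-KO, -0.79 ± 0.46 in WT, SD, n = 3 per group; difference 1.92, exact two-sided permutation p = 0.1, adjusted 0.375 over 15 pairs). FIS1 over MFF differed by 1.88 (1.28 ± 0.62 in DCRT-KO, against -0.60 ± 0.37 in WT), POLRMT over TFAM by 1.34 (0.92 ± 0.95 in DCRT-KO, -0.43 ± 0.25 in WT), and GABPA over NRF1 by -1.20 (-1.21 ± 0.65 in DCRT-KO, -0.01 ± 0.36 in WT). Each had the same exact p of 0.1, the smallest that 3 against 3 libraries allow, so no pair could pass. A ratio does not cancel a trend with GC content, which is described further on. In all 4 pairs the gene relatively higher in DCRT-KO had the more GC-rich transcript. FIS1 had 58.3% GC, against 42.6% for DNM1L and 43.4% for MFF. POLRMT had 66.3%, against 38.4% for TFAM, and NRF1 had 49.7%, against 36.4% for GABPA. The part of GC content in these ratios was not tested, and no share over other pairs of genes was computed. The other 11 pairs overlapped, among them MFN2 over MFN1 (difference 0.65), BNIP3L over BNIP3 (-0.42) and PPARGC1B over PPRC1 (0.23).

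**Figure D3:**
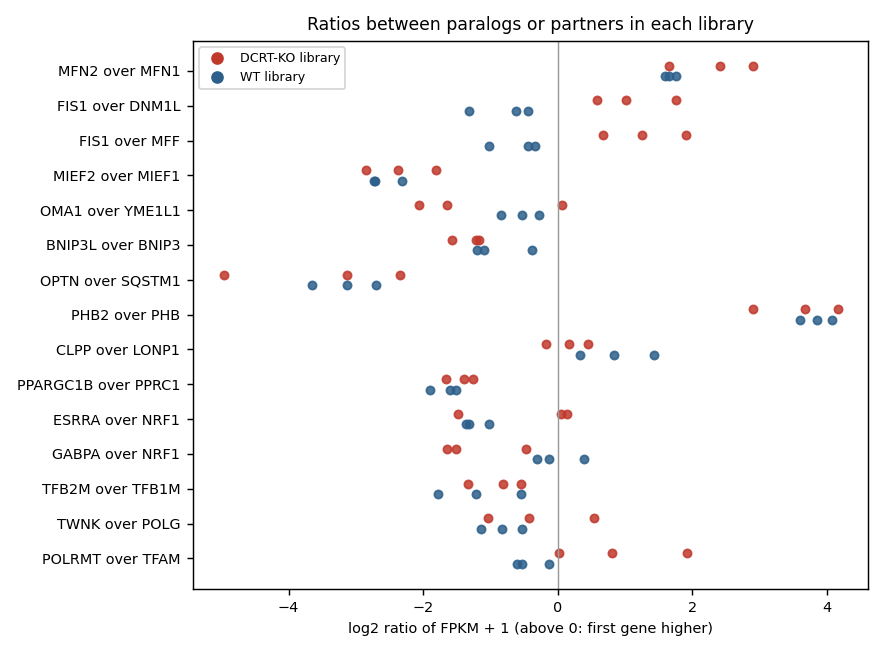
Log2 ratio of FPKM + 1 for the 15 pairs of partners or paralogs, with 1 point per library, DCRT-KO in red and WT in blue. The FIS1 over DNM1L and FIS1 over MFF ratios lie above 0 in all DCRT-KO libraries and under 0 in all WT libraries.

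The DCRT-KO libraries spread more among themselves than the WT libraries did. In 23 of 31 tested members the SD of log2(FPKM + 1) was larger in DCRT-KO, with a median of 0.36 in DCRT-KO, against 0.21 in WT. Over all tested genes the medians were 0.36 in DCRT-KO and 0.198 in WT, so the members did not stand out. DCRT-KO library 2, the shallowest, had 6 of 31 members inside the range of the WT libraries, 14 above it and 11 below it. DCRT-KO library 3, the deepest of its group, had 9 inside, 13 above and 9 below. The same counts were not made over all tested genes, so they cannot be read as a trait of the members.

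The GC content of the transcripts moved with the differences. Over the 31 tested members the log2 difference had a Spearman correlation of 0.70 with GC content (Pearson 0.70) and of -0.61 with the number of TCTT motifs per kilobase (Pearson -0.63). Over 11424 tested genes with a transcript these were 0.42 and -0.33 (Pearson 0.41 and -0.31). For the hexamers CTCTCT and TTCTCT per kilobase, the Spearman correlation was -0.25 over the members and -0.10 over those genes. TCTT is itself poor in G and C, and its density was not separated from GC content. All these points come from the same 6 libraries and share their depth. Over all tested genes, the log2 value of a library minus the mean of the other WT libraries had a Spearman correlation with GC content of 0.32, 0.39 and 0.34 for DCRT-KO libraries 1, 2 and 3, against 0.12, -0.07 and -0.03 for WT libraries a to c. The 4 tested members above 60% GC (LONP1, CLPP, ESRRA and POLRMT) all had positive differences, with a median of 1.03. Over all tested genes above 60% GC, 71.9% had positive differences, with a median of 0.32. Of the 9 members between 40% and 45% GC, 2 had positive differences, with a median of -0.19, against 32.4% and -0.20 over all tested genes there. Up to 40% GC, 2 of 6 members had positive differences, with a median of -0.53, against 19.6% and -0.37 over all tested genes. FIS1, at 58.3% GC, stood 1.35 above the median of 746 tested genes within 1% of its GC content, and BNIP3, at 44.8%, stood 0.82 above its own such genes. When the trend of every library with GC content and length was removed, FIS1 passed (1.31, limma adjusted p = 0.0334). ESRRA (1.10, limma adjusted p = 0.0647), LONP1 (0.89, 0.0961), BNIP3 (0.80, 0.0684) and SSBP1 (-0.82, 0.101) did not. In that setting 109 of all 11424 tested genes were called higher and 67 lower, against 269 and 137 of 11445 as reported. Calls thus fell across the whole table. Either hexamer, CTCTCT or its relative TTCTCT, was present in 80.6% of tested members and 83.1% of all tested genes.

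**Figure D4:**
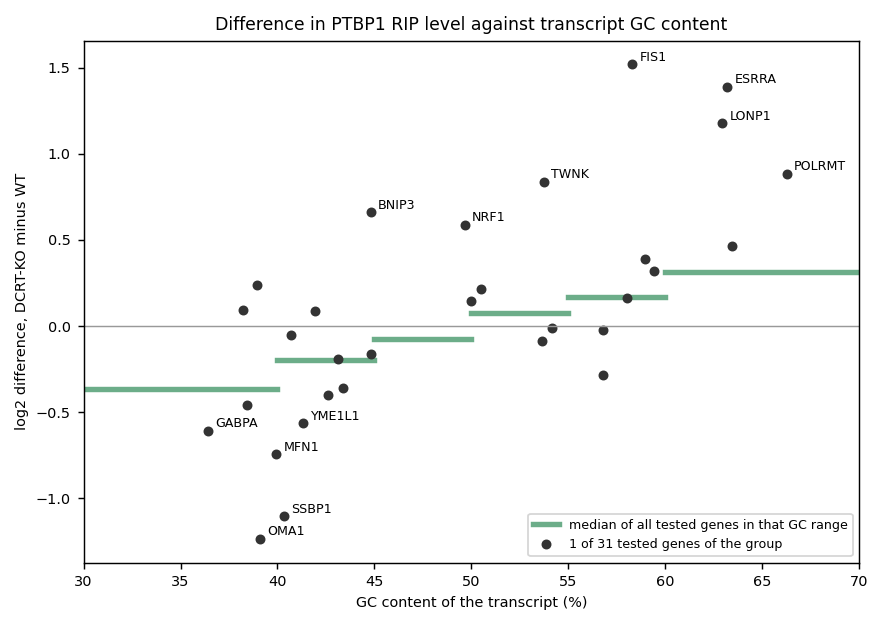
Log2 difference, DCRT-KO minus WT, against the GC content of the transcript for the 31 tested members, with lines at the median of all tested genes in each GC range. The members above 60% GC lie above 0, with LONP1 and ESRRA highest, and most members under 45% GC lie below 0, apart from BNIP3, BNIP3L, OPA1 and TFB2M.

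Genes beside the called members were looked at for a shared direction along the chromosome. In the 10 Mb window of SSBP1, 5 of 34 other tested genes were higher in DCRT-KO, with a median log2 difference of -0.51. In the windows of FIS1 and LONP1, 50 of 79 and 117 of 159 other genes were higher, with medians of 0.21 and 0.29. In those of ESRRA and BNIP3, 105 of 170 and 6 of 11 were higher, with medians of 0.15 and 0.29. Over all tested genes 47.2% were higher, with a median of -0.04. SSBP1 thus lay in a stretch of chromosome 7 with mostly lower values, and FIS1, LONP1 and ESRRA lay in stretches with mostly higher values. The part of these surroundings in the values of the members was not tested.

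Other genes of the same processes were called about as often as all genes. Of 106 listed, 101 were tested: 2 rose and 0 fell with limma, where 2.35% and 1.2% of all genes did. At an unadjusted limma p below 0.05, 12 were higher and 13 lower, where 12.3% and 11.3% of all genes were. With voom 5 were higher and 2 lower, where 5.85% and 3.4% of all genes were, and the median log2 difference was -0.01. IMMT, the mitofilin of the cristae junction, had 30.8 ± 4.43 FPKM in DCRT-KO, against 14.6 ± 1.84 in WT RIP (SD, n = 3 per group; log2 difference 1.03 ± 0.18 SE, limma adjusted p = 0.0269). It was the 1 call among 25 tested shape and contact factors. ATAD3A, an inner-membrane ATPase that anchors mtDNA nucleoids, had 16.6 ± 3.75 FPKM in DCRT-KO, against 5.83 ± 1.45 in WT (1.37 ± 0.24 SE, limma adjusted p = 0.0269), the 1 call among 24 genes of mtDNA maintenance and RNA. Its close paralogs ATAD3B and ATAD3C make the assignment of its reads uncertain.

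No gene passed with limma among 23 mitophagy and ubiquitin genes, 15 proteases and chaperones, or 14 biogenesis regulators. At an unadjusted limma p below 0.05, 1, 4 and 1 of them were higher and 2, 1 and 2 lower. Of all tested genes, 12.3% were higher and 11.3% lower at that level. The 25 shape and contact factors had 3 higher and 2 lower, and the 24 genes of mtDNA maintenance and RNA 3 higher and 6 lower. The most abundant mitophagy genes were RAB7A, a late-endosome GTPase (96.8 ± 6.71 FPKM in DCRT-KO, against 80.5 ± 7.002 in WT, limma adjusted p = 0.317), and TOMM20, an import receptor (45.4 ± 18.6 FPKM in DCRT-KO, against 45.03 ± 2.06 in WT, 0.904). The matrix chaperone HSPD1 had 41.0 ± 1.87 FPKM in DCRT-KO, against 27.8 ± 3.55 in WT (limma adjusted p = 0.0850), and HSPA9 had 19.98 ± 4.08 FPKM in DCRT-KO, against 15.8 ± 0.945 in WT (0.359). The transcription coregulator HCFC1 had 82.9 ± 16.4 FPKM in DCRT-KO, against 72.0 ± 10.8 in WT (limma adjusted p = 0.567), and the AMPK subunit PRKAA1 had 28.3 ± 8.45 FPKM in DCRT-KO, against 37.1 ± 5.26 in WT (0.323). With voom the 5 higher genes were OPA3, IMMT, AFG3L2, TRAP1 and ATAD3A, and the 2 lower were the mitophagy adaptor CALCOCO2 (2.90 ± 0.402 FPKM in DCRT-KO, against 6.78 ± 1.04 in WT, voom adjusted p = 0.0209) and the mitochondrial mRNA stability factor LRPPRC (28.3 ± 1.85 FPKM in DCRT-KO, against 42.1 ± 1.43 in WT, voom adjusted p = 0.0220).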

How the data were processed

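PTBP1 RIP RNA was measured in 3 DCRT-KO and 3 WT libraries. Per the labels' protocols, RNA came from a phenol-based extraction, libraries from a strand-specific kit and reads as paired ends from an Illumina HiSeq; cutadapt 1.2.1 was used, per the submitters' processing notes. For aligner, counting tool and build, the labels give nothing. The authors deposited FPKM per gene, with positions that overlapped GENCODE 29 (GRCh38) for all 34 members, with both ends identical for 18. Since FPKM are relative to a total, rises in some genes lower others. Multiplied by length, 100% of FPKM values were whole multiples of the worth of 1 read in their column (relative tolerance 1e-06), and reads were recovered from this. A floor of 3 reads is 1.16 RPM in the deepest and 8.04 in the shallowest library and covers counting error only. DCRT-KO columns were matched by name and WT columns to the group only. Whether cultures were separate is not stated; p-values thus reflect only how these libraries vary, possibly for technical reasons. Unused FPKM columns numbered 0.

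The 2-sided test was limma 3.58.1 (R 4.3.3), with a trended variance, on log2(FPKM + 1) of the 11445 genes averaging 1 FPKM or more, adjusted after Benjamini-Hochberg over all of them (threshold 0.05); voom ran on the reads. Fold changes on this scale understate changes of low genes. The script was tested on simulated data. GC content and motifs come from the principal coding transcript of GENCODE 29, or the longest. Every member is named; values in every library are given for members past the threshold in limma or voom and for the 2 highest of each role; of related lists up to 3 called genes or the 2 highest are named, and the genes added by voom were chosen after their values were seen. The members and lists were chosen with earlier results of these data known. Alternatives were another pseudocount, filter, scaling or variance model, voom with and without library weights, each library left out, both shallowest libraries left out, thinning to 373354 reads (1 draw) and removal of the GC and length trend. Python 3.11.15, NumPy 2.4.6, pandas 2.3.3 and SciPy 1.17.1 were used.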

Additional observations from a re-analysis of the deposited data

How the results depend on the processing

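FIS1, LONP1, ESRRA, BNIP3 and SSBP1 kept their direction in all 19 alternatives; FIS1 passed in 13, ESRRA in 10, LONP1 in 8, SSBP1 in 7 and BNIP3 in 2. No difference that passed as reported changed sign in any of them. Members called higher were 3 as reported and 1 with no filter, 1 without a variance trend, 1 with the GC and length trend removed, 5 with voom's library weights, 0 without the 2 shallowest libraries, 0 after thinning and 0 to 5 with a library left out. Members called lower were 0 as reported, 1 with a filter of 5 FPKM, 1 with median-of-ratios scaling, 2 with quantile normalization, 1 when rescaled without mitochondrially encoded genes, 1 with voom, 1 with its weights and 0 to 3 with a library left out; the 3 were MFN1, YME1L1 and SSBP1 without DCRT-KO library 3. Over all genes 269 were higher as reported, against 72 with no filter, 70 without a variance trend, 669 with voom, 820 with weights, 31 without the 2 shallowest libraries, 75 after thinning, 109 with the GC and length trend removed and 0 to 724 with a library left out. Lower genes were 137 as reported, against 90 with a pseudocount of 0.1, 50 with no filter, 278 with quantile normalization, 328 when rescaled without mitochondrially encoded genes, 64 without a variance trend, 389 with voom, 483 with weights, 13 without the 2 shallowest libraries, 32 after thinning, 67 with the GC and length trend removed and 0 to 836 with a library left out. Calls in the higher direction made up 66.26% as reported, 50.27% with quantile normalization and 36.19% when rescaled without mitochondrially encoded genes, which moved the median of all genes to -0.17, against -0.04 as reported. The causes were not tested. No paired analysis was possible because the headers of the WT columns give no usable numbers. Depth limits what FUNDC1, OPTN, MTFP1, PINK1 and PPARGC1A can show, with 0 to 12 reads in each DCRT-KO library.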
